A study of Homo sapiens with 4 samples.

Results

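The genes described here are 34 genes of the lysosome and its transcriptional control, chosen by name from the 39306 gene names measured in human hepatocellular carcinoma cells. They are 9 cathepsins (CTSA, CTSB, CTSC, CTSD, CTSF, CTSH, CTSL, CTSS and CTSZ) with the peptidase gene TPP1, 12 genes of glycosidases and sulfatases (GLA, GLB1, GAA, GUSB, GUSBP1, HEXA, MAN2B1, MANBA, NEU1, NAGLU, ARSA and ARSB), 5 of lipid breakdown (ASAH1, SMPD1, LIPA, PSAP and PPT1), 4 of the lysosomal membrane (LAMP1, LAMP2, SCARB2 and MCOLN1), and the transcription factors TFEB, TFE3 and MITF. GUSBP1 is a pseudogene of GUSB and codes for no known hydrolase. All 34 were measured and passed the filter on low values, which kept 20221 genes. RNA sequencing was done on 2 libraries of MHCC97H cells in which HNRNPM was targeted by a short hairpin RNA (knockdown) and on 2 libraries of wild-type MHCC97H cells (control). MHCC97H is an established human liver cancer line of high metastatic capacity, and HNRNPM encodes an RNA-binding protein that regulates splicing. No control hairpin is named for the wild-type cells, so delivery of a hairpin and loss of HNRNPM cannot be told apart. The labels do not say whether 1 hairpin or several were used, nor whether replicates came from separate cultures. The p-values thus rest on a spread between libraries that may be only technical.

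Lysosomes are acidic organelles in which hydrolases break down proteins, glycans and lipids delivered by endocytosis and autophagy. Most soluble hydrolases are made in the endoplasmic reticulum, tagged with mannose 6-phosphate in the Golgi and sorted by receptors, while a proton pump, the V-ATPase, acidifies the lumen. TFEB, TFE3 and MITF are related transcription factors that bind E-box letters, named CLEAR elements in lysosomal promoters, and the kinase complex mTORC1 at the lysosomal surface keeps them in the cytoplasm when nutrients are plentiful. In cancer cells cathepsins are also known as secreted proteases of the matrix.

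Levels are given as RPKM (a read density per kilobase of exon, scaled to library size), and the depth recovered from them was 12708165 and 11498663 reads in the knockdown libraries and 18317579 and 19659106 reads in the controls. The targeted gene HNRNPM (chromosome 19, positions 8444767 to 8489114, plus strand, GRCh38) was at 21.8 and 20.4 RPKM in knockdown cells against 51.3 and 51.6 RPKM in control cells. Both knockdown libraries thus lay below both controls. Scaled by TMM factors, which correct for differences in library composition, HNRNPM fell to 39.3% of its control level (log2 fold change -1.35 ± 0.07, SE; limma adjusted p = 0.00270). Fold changes throughout are on the scale log2(scaled RPKM + 0.1), and a gene is called higher or lower where limma's adjusted p, taken over all 20221 tested genes, is under 0.05. Of those genes 13.8% were called lower and 11.1% higher, so calls were common. With RPKM as deposited, 55.5% of all calls were higher, against 44.5% after TMM scaling. In bulk RNA, fewer cells of a type and less RNA per cell cannot be told apart.

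The lysosomal genes were lower as a body in knockdown cells. Of the 34, 26 were called lower and 0 higher, against 13.8% called lower among all tested genes. The members were chosen with earlier results of these data known, so this contrast is descriptive only. No member was higher at an unadjusted p under 0.05 either, and limma-voom also called 0 higher. The fitted change was negative in all 34, with a median of -0.60 on the log2 scale beside -0.03 over all tested genes. The sign of GUSBP1 depended on scaling, as its change turned to 0.025 without TMM factors. Called genes stood at 47.8% to 80.3% of their control level. After scaling, both knockdown libraries lay below both controls in 31 members, a pattern found in 36.6% of tested genes, and 30 showed it in RPKM as deposited. The median gap between replicates was 0.09 between the knockdown libraries and 0.15 between the controls, and the change exceeded the larger gap of its own gene in 31 of 34. For this count and for the 30 as deposited, no share over all tested genes is given. In RPKM as deposited, control replicate 2 was above control replicate 1 in 27 members. Without control replicate 1 or 2 the median change was -0.71 and -0.55, and without knockdown replicate 1 or 2 it was -0.58 and -0.65. Fewer members were called lower in each of these fits, as were fewer of all tested genes.

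The 34 genes together took 0.424% and 0.431% of reads in the knockdown libraries and 0.622% and 0.679% in the control libraries. Summed over the genes, the level was 1160 and 1178 RPKM in knockdown cells against 1738 and 1894 RPKM in control cells. The sum thus fell to 0.644 of the control mean, and without CTSL, PSAP and CTSD, the most abundant members, the ratio was 0.699. Levels spanned a wide range: the median control level was 12.6 RPKM, beside 3.46 RPKM over all tested genes, and single genes had 6 to 27558 reads per library. MITF was the lowest.

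**Figure D1:**
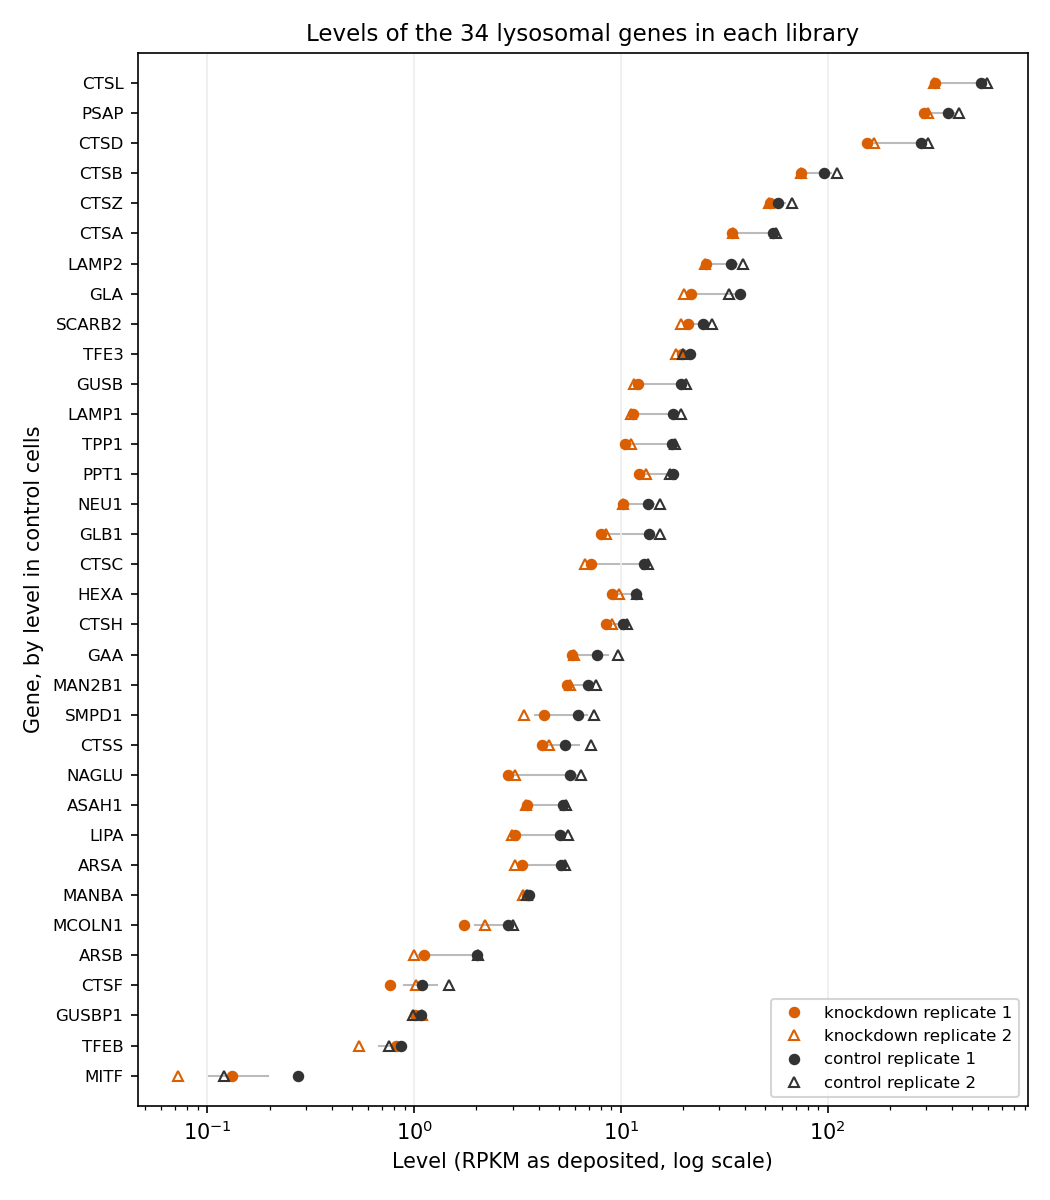
Level of each of the 34 genes in each library (RPKM as deposited, log axis), ordered by the control mean; grey lines join the group means. Knockdown points lie left of both control points for 30 genes, from CTSL at the top to ARSB and CTSF near the bottom, while GUSBP1, TFEB, MITF and MANBA overlap.

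Promoter windows were read for letters known to be bound by the TFEB family, since so many members were lower together. RefSeq windows of 300 bases (250 before to 50 after a start site, GRCh38.p14) were found for 24 of the 34 members. ARSA, ASAH1, CTSB, CTSS, GUSBP1, HEXA, LAMP2, MANBA, NAGLU and PSAP had no entry. The E-box CACGTG, which reads the same on both strands, was found in 8 of the 24 (33.3%), against 8.77% of all genes in the promoter table and 12.4% of the tested genes with a window. The 7-letter form TCACGTG, searched on both strands and containing CACGTG, was found in the same share of members (33.3%) against 6.91% of tested genes. The longer palindrome, CACGTG with GT before and AC after it, contains both shorter forms and was found among the 24 members in GAA and MCOLN1 only, and in 0.832% of tested genes. The 8 stretches that hold the hexamer are shown because they are the members' candidate CLEAR letters, 5′ to 3′ on the gene's strand, with each CACGTG in capitals and no base past the start site.
LAMP1 (chr13:113297032-113297238, plus strand): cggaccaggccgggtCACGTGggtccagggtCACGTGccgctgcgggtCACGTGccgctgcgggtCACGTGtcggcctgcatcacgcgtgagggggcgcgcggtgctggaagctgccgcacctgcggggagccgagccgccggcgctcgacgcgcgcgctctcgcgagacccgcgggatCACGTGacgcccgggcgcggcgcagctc
CTSA (chr20:45891278-45891330, plus strand): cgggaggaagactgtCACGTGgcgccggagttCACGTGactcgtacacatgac
GAA (chr17:80101490-80101570, plus strand): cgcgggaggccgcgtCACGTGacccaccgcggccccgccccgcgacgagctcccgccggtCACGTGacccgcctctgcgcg
MCOLN1 (chr19:7522568-7522623, plus strand): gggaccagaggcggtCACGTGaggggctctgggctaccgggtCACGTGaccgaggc
CTSF (chr11:66568637-66568744, minus strand): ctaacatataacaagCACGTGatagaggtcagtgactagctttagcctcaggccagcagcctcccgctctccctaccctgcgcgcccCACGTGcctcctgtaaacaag
CTSD (chr11:1763954-1763989, minus strand): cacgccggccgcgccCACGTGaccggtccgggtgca
ARSB (chr5:78986098-78986133, minus strand): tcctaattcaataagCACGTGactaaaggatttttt
NEU1 (chr6:31862927-31862962, minus strand): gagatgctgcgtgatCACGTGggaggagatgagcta

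LAMP1 held 6 copies, of which the last begins at the base before the start site and is not shown whole, and CTSA, GAA, MCOLN1 and CTSF held 2 each. All 17 copies began before the start site, and 16 had a T before or an A after the hexamer. Of the 8 genes that hold it 7 were called lower, with a median log2 fold change of -0.67, and of the 16 members without it 12 were called lower, with a median of -0.68. Members with and without the letters thus had nearly the same median. The 16 without them include the transcription factor genes MITF, TFEB and TFE3 (-0.56, -0.30 and -0.18), so the medians do not compare genes of like roles. Over all tested genes with a window, 16.7% of those holding CACGTG were called lower and 14.5% of those without it. For the longer palindrome the shares were 25.3% of the 91 genes with it and 14.7% of the rest. The hexamer was also found in 5 of 10 windows of enzyme sorting genes, 6 of 15 of mTORC1 genes, 4 of 16 of V-ATPase genes, 6 of 24 of other hydrolases, 4 of 20 of other membrane proteins and 0 of 2 of cystatins. The share is thus not particular to the 34 genes. Any part of the TFEB family or of these letters in the changes was not tested. A match is a run of letters and does not show binding.

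**Figure D2:**
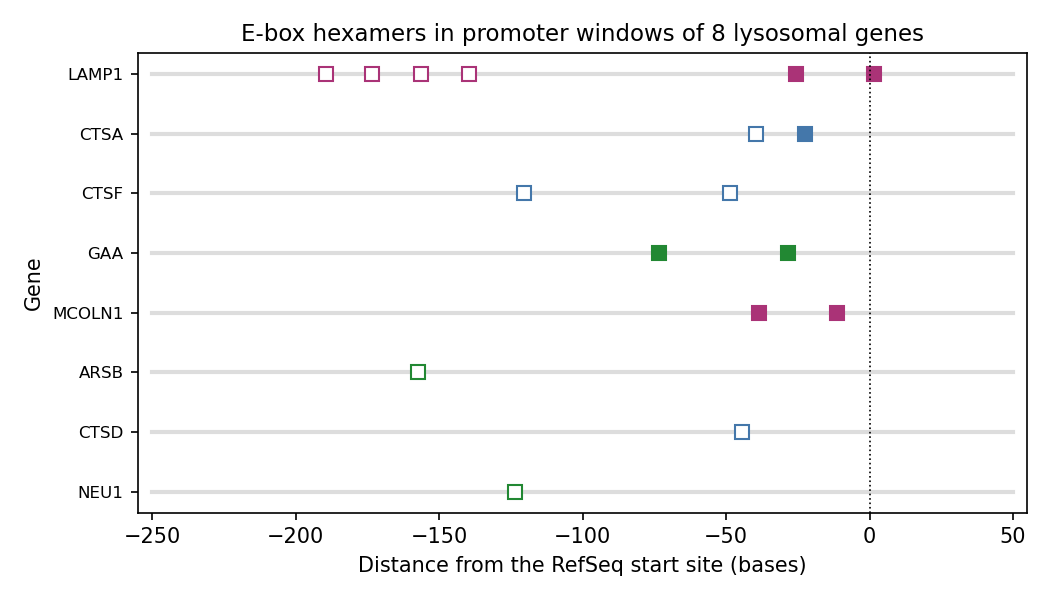
Positions of CACGTG in the promoter windows of the 8 members that hold it, as distance in bases from the RefSeq start site (dotted line); filled squares have both a T before and an A after the hexamer, and colours mark the gene's role. LAMP1 has 6 copies and ARSB, CTSD and NEU1 have 1 each.

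Of the 10 protease genes 7 were called lower and none higher, beside 13.8% lower and 11.1% higher among all tested genes. CTSL encodes cathepsin L, a cysteine endopeptidase, and was the most abundant of the 34 genes (chromosome 9, positions 87725519 to 87731393, plus strand). It was at 331 and 326 RPKM in knockdown cells against 552 and 591 RPKM in control cells. The groups were well apart, and CTSL fell by 0.86 on the log2 scale (SE 0.09; limma adjusted p = 0.00528). Its named pseudogene copies held at most 5 reads in any library. CTSD encodes cathepsin D, the main aspartic protease of lysosomes (chromosome 11, positions 1752752 to 1764573, minus strand). Its levels were 155 and 168 RPKM in knockdown cells against 282 and 306 RPKM in control cells. Both knockdown libraries were clearly below the controls (log2 fold change -0.93 ± 0.09, limma adjusted p = 0.00468), although 1304 bp of its exons are shared with another gene name. CTSC encodes cathepsin C, a dipeptidyl peptidase that activates serine proteases of immune cells (chromosome 11, positions 88293592 to 88337787, minus strand). It was at 7.20 and 6.69 RPKM in knockdown cells against 13.0 and 13.5 RPKM in control cells. This was the largest fall among the 10 proteases and the smallest adjusted p of the 34 genes (log2 fold change -0.98 ± 0.08, limma adjusted p = 0.00415).

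CTSA encodes a serine carboxypeptidase that also protects NEU1 and GLB1 in a complex, and its 34.4 and 35.1 RPKM in knockdown cells stood against 54.4 and 56.2 RPKM in control cells. The libraries of each group were close together, and CTSA fell by 0.73 on the log2 scale (SE 0.07; limma adjusted p = 0.00428), but its exons overlap those of 3 other gene names. TPP1, a tripeptidyl peptidase, was at 10.5 and 11.2 RPKM in knockdown cells against 17.8 and 18.3 RPKM in control cells, with the groups equally well apart (log2 fold change -0.80 ± 0.08, limma adjusted p = 0.00468). CTSB encodes cathepsin B, a cysteine protease with exopeptidase activity. It was at 74.2 and 74.3 RPKM in knockdown cells against 96.6 and 111 RPKM in control cells. Both controls were higher, but they differed from each other more than the knockdown libraries did (log2 fold change -0.54 ± 0.09, limma adjusted p = 0.0138). The call of CTSB was lost without knockdown replicate 1 or 2 (adjusted p = 0.0603 and 0.0522). CTSH, an aminopeptidase, was called lower by a narrow margin (log2 fold change -0.32, limma adjusted p = 0.0477), and that call was lost without any single library (adjusted p 0.0798 to 0.218). Just past the threshold were CTSS at 4.15 and 4.48 RPKM in knockdown against 5.37 and 7.19 RPKM in control cells, and CTSZ at 52.4 and 52.1 against 57.4 and 67.4 RPKM (limma adjusted p = 0.0521 and 0.0658). Both were called lower without control replicate 1 (adjusted p = 0.0264 and 0.0216). CTSF was at 0.761 and 1.02 RPKM in knockdown against 1.09 and 1.48 RPKM in control cells, from 28 to 84 reads per library, and did not pass (limma adjusted p = 0.138).

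Of the 12 genes of glycosidases and sulfatases 10 were called lower, beside 13.8% of all tested genes. The exceptions were MANBA and the pseudogene GUSBP1. NAGLU encodes an enzyme of heparan sulfate breakdown and had the largest fall of the 34 genes (chromosome 17, positions 42536172 to 42544449, plus strand). It was at 2.86 and 3.07 RPKM in knockdown cells against 5.65 and 6.43 RPKM in control cells. Its level fell to 47.8% of control, and the groups were far apart (log2 fold change -1.06 ± 0.12, limma adjusted p = 0.00585). It shares 379 bp of exons on its own strand with another gene name. ARSB, a sulfatase of dermatan and chondroitin sulfate, was at 1.12 and 1.004 RPKM in knockdown cells against 2.01 and 2.03 RPKM in control cells. Its fall of 0.93 on the log2 scale (SE 0.14; limma adjusted p = 0.0111) rested on 83 to 287 reads per library and was not called without control replicate 2 (adjusted p = 0.0560). ARSA, the sulfatase of sulfatide, was at 3.33 and 3.08 RPKM in knockdown cells against 5.14 and 5.34 RPKM in control cells (log2 fold change -0.75 ± 0.10, limma adjusted p = 0.00827). The groups of both sulfatases were well apart.

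GLB1, the lysosomal beta-galactosidase, was at 8.04 and 8.49 RPKM in knockdown cells against 13.6 and 15.4 RPKM in control cells (log2 fold change -0.87 ± 0.10, limma adjusted p = 0.00585). GLA, alpha-galactosidase A (chromosome X, positions 101397803 to 101407925, minus strand), was at 21.8 and 20.2 RPKM in knockdown cells against 37.6 and 33.2 RPKM in control cells (log2 fold change -0.82 ± 0.08, limma adjusted p = 0.00524). Both galactosidase genes thus stood at 54.8% and 56.8% of control, with separate groups. GUSB, beta-glucuronidase, was at 12.1 and 11.5 RPKM in knockdown cells against 19.6 and 20.7 RPKM in control cells (log2 fold change -0.83 ± 0.07, limma adjusted p = 0.00428). GUSB is often used as a reference gene in quantitative PCR, and here it stood at 56.3% of control. Its pseudogene GUSBP1, whose copies on chromosomes 5 and 6 are merged under its name, was at 1.01 and 1.10 RPKM in knockdown against 1.08 and 0.991 RPKM in control cells. These values overlap (log2 fold change -0.03, 95% CI -0.43 to 0.36). GUSB has several near copies, so reads may be split between them. NEU1, the lysosomal sialidase, was at 10.2 and 10.2 RPKM in knockdown cells against 13.6 and 15.5 RPKM in control cells. Both control libraries were higher (log2 fold change -0.56 ± 0.09, limma adjusted p = 0.0137).

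GAA (acid alpha-glucosidase, which degrades glycogen), MAN2B1 (alpha-mannosidase) and HEXA (a beta-hexosaminidase subunit) were called lower with log2 fold changes of -0.61, -0.43 and -0.40 (limma adjusted p = 0.0245 to 0.0299). These smaller changes were less secure. Without control replicate 2, and without knockdown replicate 1 or 2, none of the 3 was called (adjusted p 0.0552 to 0.126), and HEXA was not called without control replicate 1 either (adjusted p = 0.0627). MANBA, beta-mannosidase, was at 3.53 and 3.36 RPKM in knockdown against 3.59 and 3.53 RPKM in control cells. Its groups overlapped as deposited, and it did not pass (log2 fold change -0.11, 95% CI -0.37 to 0.15, limma adjusted p = 0.484).

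All 5 genes of lipid breakdown were called lower, beside 13.8% of all tested genes. SMPD1, acid sphingomyelinase, was at 4.26 and 3.42 RPKM in knockdown cells against 6.23 and 7.44 RPKM in control cells. The replicates of both groups were spread, and the fall of 0.88 on the log2 scale (SE 0.15; limma adjusted p = 0.0144) was not called without control replicate 2 (adjusted p = 0.0625). LIPA, the acid lipase of cholesteryl esters and triglycerides, was at 3.06 and 2.99 RPKM in knockdown cells against 5.06 and 5.53 RPKM in control cells. ASAH1, acid ceramidase, was at 3.52 and 3.46 RPKM in knockdown cells against 5.28 and 5.42 RPKM in control cells. These 2 genes had tight replicates and separate groups, with log2 fold changes of -0.85 ± 0.11 and -0.66 ± 0.10 (limma adjusted p = 0.00702 and 0.00970). PPT1, which removes palmitate from proteins, was at 12.3 and 13.2 RPKM in knockdown cells against 17.9 and 17.3 RPKM in control cells (log2 fold change -0.53 ± 0.08, limma adjusted p = 0.010035). It just missed the threshold without knockdown replicate 1 (adjusted p = 0.0514). PSAP encodes prosaposin, the precursor of the saposins that present lipids to these enzymes (chromosome 10, positions 71816298 to 71851375, minus strand). As the second most abundant member it was at 293 and 306 RPKM in knockdown cells against 382 and 433 RPKM in control cells. It fell by 0.51 on the log2 scale (SE 0.10; limma adjusted p = 0.0217), but it was not called without knockdown replicate 1 or 2 (adjusted p = 0.136 and 0.0905).

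All 4 membrane genes were called lower as well, beside 13.8% of all tested genes. LAMP1, a heavily glycosylated protein that lines the lysosomal membrane (chromosome 13, positions 113297241 to 113323672, plus strand), was at 11.4 and 11.2 RPKM in knockdown cells against 17.9 and 19.6 RPKM in control cells. LAMP1 had the largest fall of the 4 (log2 fold change -0.78 ± 0.08, limma adjusted p = 0.00528). LAMP2, its relative that also serves chaperone-mediated autophagy, was at 25.8 and 25.6 RPKM in knockdown cells against 34.2 and 38.9 RPKM in control cells (log2 fold change -0.57 ± 0.09, limma adjusted p = 0.0110). SCARB2, a membrane protein that also serves as a transport receptor, was at 21.1 and 19.6 RPKM in knockdown cells against 25.0 and 27.5 RPKM in control cells (log2 fold change -0.43 ± 0.08, limma adjusted p = 0.0206). The groups did not overlap in either gene, but SCARB2 was not called without control replicate 2 or without either knockdown library (adjusted p 0.0574 to 0.0932). MCOLN1, the calcium channel TRPML1, was called lower with a log2 fold change of -0.61 ± 0.16 (limma adjusted p = 0.0413) from 88 to 233 reads per library. That call was lost without either control library or knockdown replicate 1 (adjusted p 0.111 to 0.152) and with RPKM as deposited (adjusted p = 0.0511).

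None of the transcription factor genes was called, beside 24.9% of all tested genes called in either direction. TFE3 was the abundant one (chromosome X, positions 49028726 to 49043486, minus strand), at 19.8 and 18.5 RPKM in knockdown cells against 21.6 and 19.9 RPKM in control cells. Its knockdown libraries were only just below the controls (log2 fold change -0.18, 95% CI -0.37 to 0.01, limma adjusted p = 0.138). TFEB (chromosome 6, positions 41683978 to 41736259, minus strand) was at 0.822 and 0.539 RPKM in knockdown against 0.860 and 0.757 RPKM in control cells, and the groups overlapped (log2 fold change -0.30, 95% CI -0.87 to 0.27, limma adjusted p = 0.380). MITF (chromosome 3, positions 69739435 to 69968337, plus strand) was at 0.131 and 0.0725 RPKM in knockdown against 0.273 and 0.120 RPKM in control cells. With 6 to 36 reads per library the interval ran from -1.37 to 0.25 (limma adjusted p = 0.255), so a change of the size seen in the hydrolases was not detectable at this depth. RNA levels give no measure of where these proteins were in the cell.

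**Figure D3:**
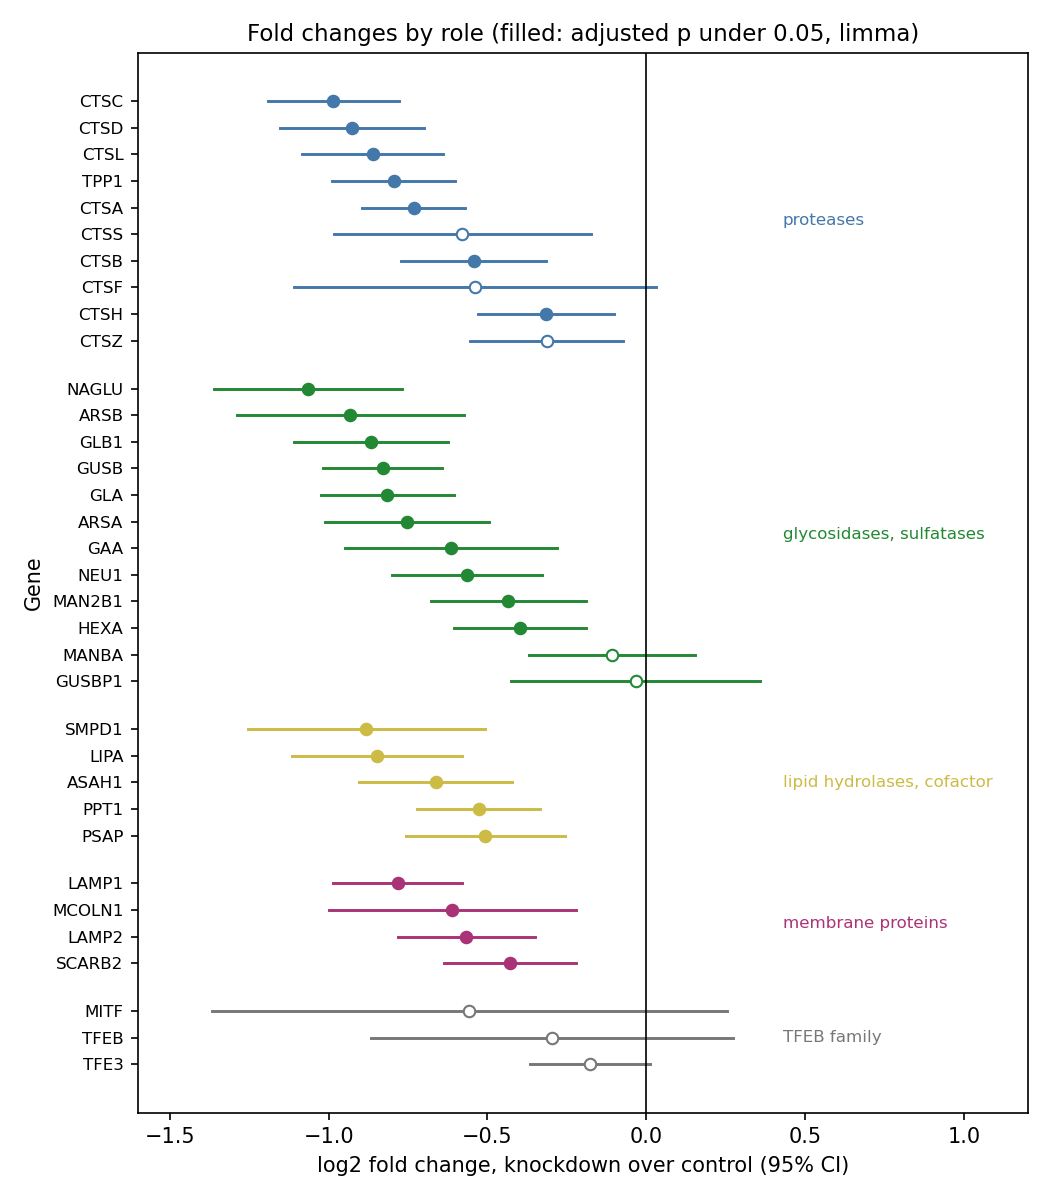
Log2 fold change of each of the 34 genes, knockdown over control, with limma's 95% confidence interval, grouped by role; filled points were called (adjusted p under 0.05). All 26 filled points lie left of 0, and the 3 transcription factors, GUSBP1, MANBA, CTSF, CTSS and CTSZ are open.

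Lists of further lysosome genes gave the changes of other parts of the organelle. Of 110 tested genes in 6 lists 41 were called lower (37.3%) and 13 higher (11.8%), with a median log2 fold change of -0.33. Over all tested genes the shares were 13.8% lower and 11.1% higher, so the higher calls were near that share. Both counts were smaller whichever library was left out, as was the number called lower among all tested genes. Of 34 tested genes for other hydrolases and their helpers 16 were called lower and 1 higher, with a median log2 fold change of -0.49. The lower ones include SGSH, a sulfatase acting beside NAGLU on heparan sulfate, at 4.96 and 5.26 RPKM in knockdown cells against 9.19 and 9.43 RPKM in control cells. ACP2, a lysosomal acid phosphatase, was at 4.04 and 4.04 RPKM in knockdown cells against 6.78 and 7.30 RPKM in control cells. Both fell by more than the gap between replicates, with log2 fold changes of -0.92 ± 0.09 and -0.85 ± 0.10 (limma adjusted p = 0.00462 and 0.00589). IDS, iduronate sulfatase, was the exception. It was at 21.1 and 21.0 RPKM in knockdown cells against 11.3 and 10.1 RPKM in control cells, and it rose by 0.90 on the log2 scale (SE 0.08; limma adjusted p = 0.00428). IDS shares 1529 bp of exons on its own strand with AF011889.5, so its reads may include those of that gene.

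Among 21 tested genes of other membrane proteins 11 were called lower and 0 higher (median -0.49), beside 13.8% and 11.1% of all tested genes. CLCN7, the chloride-proton exchanger of lysosomes, was at 9.62 and 10.1 RPKM in knockdown cells against 18.1 and 19.6 RPKM in control cells, a fall to nearly the same degree as CTSC (log2 fold change -0.99 ± 0.08, limma adjusted p = 0.00415). Its exons overlap 2 gene names on the opposite strand. SLC29A3, a nucleoside transporter, and CTNS, the cystine exporter, had log2 fold changes of -0.62 ± 0.08 and -0.74 ± 0.09 (limma adjusted p = 0.00689 and 0.00712). Of 12 genes that sort or mature lysosomal enzymes 7 were lower and 0 higher (median -0.54). IGF2R, the large mannose 6-phosphate receptor, was at 29.9 and 32.1 RPKM in knockdown cells against 54.9 and 60.6 RPKM in control cells (log2 fold change -0.96 ± 0.09, limma adjusted p = 0.00428). M6PR, the small mannose 6-phosphate receptor, was at 32.6 and 31.5 RPKM in knockdown cells against 42.3 and 46.3 RPKM in control cells (log2 fold change -0.53 ± 0.08, limma adjusted p = 0.00932). Both receptor genes and CLN6, an endoplasmic reticulum protein of enzyme export (log2 fold change -0.74 ± 0.09, limma adjusted p = 0.00717), thus fell with the enzymes they serve. CLN6 shares 1021 bp of exons on its own strand with another gene name, and M6PR shares 1105 bp with PHC1 on the opposite strand.

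The V-ATPase was split. Of 19 tested subunit and accessory genes 5 were called lower (26.3%) and 4 higher (21.1%), with a median log2 fold change of -0.06. Over all tested genes the shares were 13.8% and 11.1%. All 4 higher genes, ATP6V1D, ATP6V1E1, ATP6V1F and ATP6V1G1, encode the cytosolic V1 sector, which hydrolyses ATP, where 4 of 10 were higher and 1 lower. In the membrane V0 sector and its accessory proteins 4 of 9 were lower and 0 higher. ATP6AP1, an accessory subunit of assembly, was at 19.1 and 19.6 RPKM in knockdown cells against 29.1 and 28.8 RPKM in control cells, and ATP6AP2 at 6.07 and 6.26 against 8.65 and 8.88 RPKM. These 2 fell with tight replicates (log2 fold changes -0.64 ± 0.07 and -0.56 ± 0.08, limma adjusted p = 0.00504 and 0.0102), as did ATP6V1C2 of the V1 sector (-0.53 ± 0.08, limma adjusted p = 0.00934), which shares 1033 bp with PDIA6. ATP6V1G1 was at 41.0 and 45.6 RPKM in knockdown cells against 28.9 and 23.6 RPKM in control cells and rose by 0.66 (SE 0.12; limma adjusted p = 0.0153). ATP6V1E1 and ATP6V1F rose by 0.35 and 0.44 (limma adjusted p = 0.0189 and 0.0278), but neither was called without knockdown replicate 1 or 2 (adjusted p 0.0604 to 0.127), nor ATP6V1F without control replicate 2 (adjusted p = 0.0667).

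Among 18 genes of mTORC1 and its lysosomal anchors 1 was lower (5.56%) and 5 were higher (27.8%), with a median of -0.01. Over all tested genes the shares were 13.8% and 11.1%. MTOR, the kinase itself, was at 7.22 and 7.08 RPKM in knockdown cells against 10.7 and 10.1 RPKM in control cells (log2 fold change -0.60 ± 0.08, limma adjusted p = 0.00786). LAMTOR5 and LAMTOR2, small subunits of the Ragulator anchor, rose by 0.56 and 0.31, and RHEB, the activating GTPase, by 0.27 (limma adjusted p = 0.0164, 0.0311 and 0.0461). LAMTOR5 was not called without knockdown replicate 2 (adjusted p = 0.0620), LAMTOR2 not without control replicate 2 or without either knockdown library (0.0708 to 0.147), and RHEB not without any single library (0.0653 to 0.211).

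Cystatins, secreted or cytosolic inhibitors of cysteine cathepsins, included genes that rose. Of 6 tested 3 were called higher (50%) and 1 lower (16.7%), with a median log2 fold change of 0.75. Over all tested genes the shares were 11.1% and 13.8%. The higher count and the median include CST4, which is set aside below. CST1, cystatin SN, was at 40.9 and 43.2 RPKM in knockdown cells against 7.14 and 9.04 RPKM in control cells, a rise of 2.31 on the log2 scale (SE 0.13; limma adjusted p = 0.00285). CSTB, the cytosolic cystatin B, was at 43.8 and 41.4 RPKM in knockdown cells against 22.2 and 19.4 RPKM in control cells (log2 fold change 0.97 ± 0.08, limma adjusted p = 0.00419). Both were far above the control range. CST4 had only 11 and 8 reads in knockdown against 3 and 5 reads in control libraries, so it passed the filter through the knockdown group alone and its call (limma adjusted p = 0.0111) is no support for a rise. With no filter on low values CST4 was not called (adjusted p = 0.0873). CST3, cystatin C, was at 41.2 and 45.9 RPKM in knockdown cells against 51.1 and 57.9 RPKM in control cells. It was called lower (log2 fold change -0.39 ± 0.10, limma adjusted p = 0.0417), but not without control replicate 2 or without either knockdown library (0.0639 to 0.184). Differences between the lists were not tested.

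**Figure D4:**
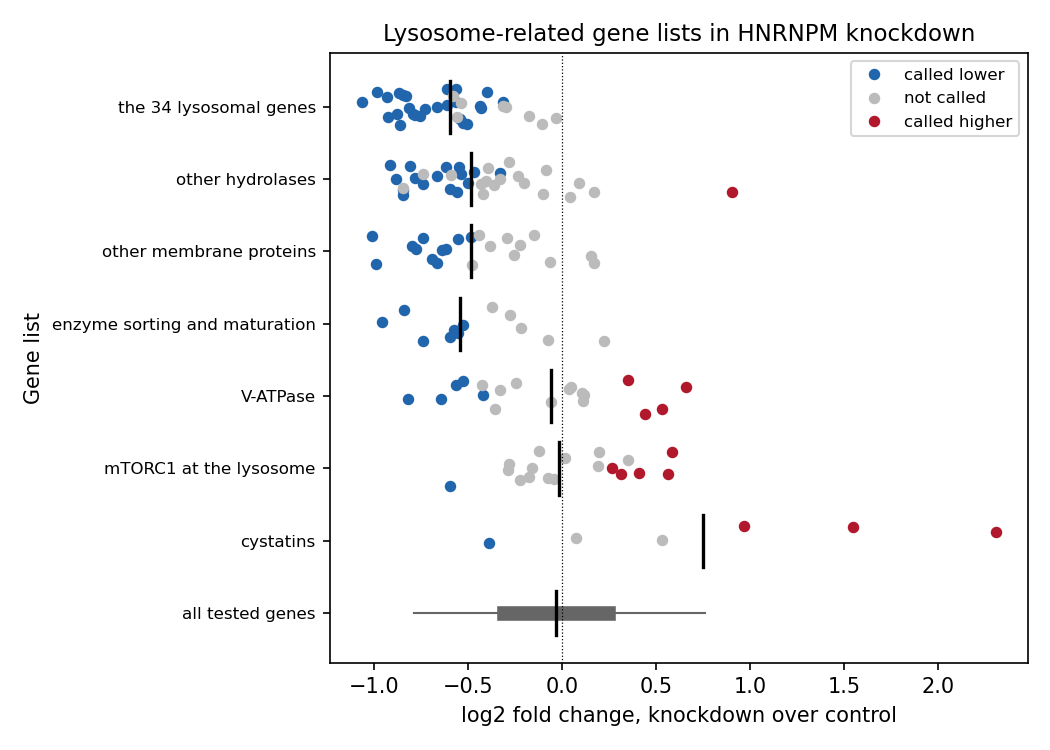
Log2 fold change of every tested gene in the 34-gene set and in 6 further lists, with black bars for each list's median; the bottom row shows all 20221 tested genes (thin line 5th to 95th percentile, thick line 25th to 75th). The 34 genes, the other hydrolases, the other membrane proteins and the sorting genes centre near -0.5 to -0.6, while the V-ATPase and mTORC1 lists centre near 0.

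Macrophages are rich in lysosomes, so their markers were read beside these genes. Of the 6 macrophage markers 1, CD14, had enough reads to be tested, and they summed to 0.411 and 0.614 RPKM in knockdown and 1.17 and 0.984 RPKM in control libraries. CD14, which hepatocytes also express, was at 0.125 and 0.138 RPKM in knockdown against 0.839 and 0.728 RPKM in control cells. With 3 and 3 reads in knockdown against 29 and 27 in control libraries it passed the filter through the control group alone, so its call as lower is no support for a fall. PTPRC, the pan-leukocyte marker, had 0 reads in knockdown replicate 2 and in both controls. The 5 fibroblast markers summed to 0.734 and 0.889 RPKM in knockdown and 0.195 and 0.282 RPKM in control libraries. COL1A1 and PDGFRB among them were called higher, but from 15 to 19 reads in knockdown against 5 to 6 in control libraries, so they too passed the filter only through the group where they are high. Of the 3 endothelial markers PECAM1 and CDH5 were called lower, and the 3, nearly all PECAM1, summed to 6.02 and 6.18 RPKM in knockdown and 8.92 and 9.42 RPKM in control libraries, with VWF at 0.0454 to 0.0734 RPKM. Of 7 tested liver markers 2 were called lower (28.6%) and 1 higher (14.3%), beside 13.8% and 11.1% of all tested genes. Their median log2 fold change was -0.06. ALB, serum albumin, was at 1.75 and 1.78 RPKM in knockdown cells against 5.35 and 6.28 RPKM in control cells, a fall to 30.3% of control (log2 fold change -1.72 ± 0.13, limma adjusted p = 0.00366). APOB, the apolipoprotein of very low density lipoprotein, was at 0.902 and 1.03 RPKM in knockdown cells against 2.09 and 1.63 RPKM in control cells, a fall to 52.6% of control (limma adjusted p = 0.0206). The epithelial keratin gene KRT18 moved the other way, at 438 and 449 RPKM in knockdown cells against 340 and 278 RPKM in control cells (log2 fold change 0.47 ± 0.12, limma adjusted p = 0.0382). Its exons overlap those of KRT8, which was at 638 and 672 RPKM in knockdown and 538 and 506 RPKM in control cells and was not called. SERPINA1, APOA1 and AFP were not called, and AFP, the fetal liver marker, was at only 0.362 and 0.267 against 0.436 and 0.297 RPKM. The part of these shifts in the lysosomal result was not tested.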

How the data were processed

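The deposited values are RPKM, 1 value per gene name and library, computed by the authors over annotated exons. The submitters' processing notes list StringTie 1.3.2, edgeR 3.12.1, Subread 1.5.1 with featureCounts, and Trimmomatic 0.36. Per the labels' protocols, ribosomal RNA was depleted and a stranded kit with molecular identifiers was used. Which aligner and strand setting were used, and how identifiers were treated, is not stated. A mouse build is named, but of 26367 gene names found once in GENCODE 29, 99.9% lay on the same GRCh38 chromosome, and all coordinates are those of the files.

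RPKM times exon length gave whole reads for 100% of values (within 0.01 of a read), and the totals set the depths. TMM factors, computed from these reads (trimming 30% of log ratios and 5% of levels), were 1.03 and 1.02 for the knockdown libraries and 0.984 and 0.972 for the controls. Genes entered with 10 reads, at median depth, in 2 or more libraries and 15 reads in all. They were tested with limma 3.58.1 in R 4.3.3 on log2(scaled RPKM + 0.1), with group as the only term, a spread moderated along expression and Benjamini-Hochberg adjustment over 20221 genes. Residual degrees of freedom were 2 and prior ones 3.56, and p-values lean on limma's pooled spread: for a single gene, exact permutation of 2 against 2 reaches p = 0.333 at the lowest. The fit was also run on simulated reads, but without TMM factors, so that run does not bear on the scaling used here. Its outcome is not given. Per-library values in the text are RPKM as deposited, errors of fold changes are limma's SEs, and intervals are 95%.

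The members and lists were chosen with earlier results of these data known. Named are the 20 called members with the smallest adjusted p, the TFEB family, and up to 3 genes per list and direction, while other members were added to account for all; 1 list gene that the rule names is not reported here. GALC, MCOLN2, MCOLN3 and CST6 were on the lists but not analysed here. Replicate numbers do not pair the libraries, as far as the labels say. Exons of 11 members (CTSA, CTSD, TPP1, GLB1, GUSBP1, HEXA, MAN2B1, NAGLU, ASAH1, LIPA and MCOLN1) overlap other gene names, so their values are less certain. Of the 23 without overlap, 16 were called lower, beside 13.8% of all tested genes. Promoter letters come from RefSeq tables.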

Additional observations from a re-analysis of the deposited data

How the results depend on the processing

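The 13 alternatives changed scaling, pseudocount, filter, model, exon length trend, block or library. Of the 26 members called lower, 13 were called lower in all of them: CTSA, CTSC, CTSD, CTSL, GLA, GLB1, GUSB, NAGLU, ARSA, ASAH1, LIPA, TPP1 and LAMP1. Across scaling, pseudocounts, the stricter filter, limma-voom and removal of the length trend, 24 to 28 members were called lower and 0 higher. With no filter on low values, where 39306 names are tested, 14 members and 20 other lysosome genes were called lower and 4 other lysosome genes higher, against 26, 41 and 13. Of all names 2.83% were then called lower, against 13.8% of all tested genes in the main fit. Leaving out 1 library at a time gave 17 to 25 members lower, 24 to 33 other lysosome genes lower and 6 to 9 higher. The sign of GUSBP1, which was never called, turned to 0.025 with RPKM as deposited and to 0.039 with the length trend removed, and ranged from -0.091 to 0.025 when a library was left out. Same-numbered libraries did not clearly deviate together (correlation 0.0628 over 20221 genes). A fit with the replicate block called 27 members lower, and 41 other lysosome genes lower and 12 higher. It called 13.8% of all tested genes lower. Low reads limit MITF, TFEB, CTSF and MCOLN1.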
